A study of Homo sapiens with 4 samples.

Results

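The brush border of the intestinal epithelium is a carpet of microvilli, each held up by a bundle of parallel actin filaments, and its assembly genes were measured here in LoVo cells, a human colorectal adenocarcinoma line. The set holds 10 genes chosen by symbol among the 58825 Ensembl genes of the deposited tables, and all 10 had a row. They cover the microvillus core (VIL1, EPS8 and PLS1, which bundle, cap or crosslink actin), the membrane linkers (EZR and MYO1A, which tie the actin core to the plasma membrane) and the complex at the microvillus tip (the protocadherins CDHR2 and CDHR5, the scaffolds USH1C and ANKS4B, and the motor MYO7B). Tip links between the protocadherins of neighbouring microvilli pack them into an ordered array while an enterocyte differentiates. In enterocytes the transcription factors CDX2 and HNF4A are known to drive genes of this programme.

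RNA from 2 biological replicates of MET+ cells, of wild-type genotype with GFP in their sample descriptions, was compared with RNA from 2 biological replicates of MET-KO cells, in which MET was edited with CRISPR-Cas9. LoVo cells carry an uncleaved, constantly active MET receptor, and both groups were grown in the same serum-containing medium. Knockout clones were picked singly after transfection and puromycin selection and chosen by immunoblot. The sources used here do not say whether both MET-KO libraries came from the same clone, so what is particular to a clone and what follows from the loss of MET cannot be told apart.

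The libraries held 8429142 and 10286552 counts for MET+ cells and 10137583 and 10228991 for MET-KO cells, from 3' end sequencing in which each transcript gives a single fragment, so that counts do not grow with transcript length and levels can be set side by side between genes. Levels are given as CPM, the count scaled to a common library size, and 3 counts, the most that a count of 0 allows, corresponded to 0.276 to 0.363 CPM. MET itself had 2794 and 3272 counts in MET+ libraries against 861 and 965 in MET-KO libraries, a log2 fold change of -1.96 (standard error 0.09, edgeR adjusted p = 1.49e-18). Reads at the 3' end give the amount of this mRNA and not whether it carries the edit. The groups stood far apart over the whole transcriptome, with 54.1% of 13801 tested genes differing at an adjusted p of 0.05. A list of 9 Y-chromosome genes summed to 6773 and 6756 counts in the MET-KO libraries and to 0 in both MET+ libraries. The keratin genes KRT8, KRT18 and KRT19 of the epithelial cytoskeleton lay between 1051 and 6181 CPM in all 4 libraries. KRT18 and KRT19 were called lower in MET-KO cells (log2 fold changes -0.30 and -0.29, edgeR adjusted p = 0.0129 and 0.0139). KRT8 was not called (edgeR adjusted p = 0.144). Of 5 intestinal epithelial markers, CDH17, GPA33 and CEACAM5 were at 0 counts in both MET-KO libraries, LGALS4 was at 1 count in each, and KRT20 was at 0 in MET+ and at 27 and 28 counts in MET-KO libraries. These 5 markers summed to 88.0 and 88.5 CPM in MET+ and to 2.75 and 2.67 CPM in MET-KO libraries. The part of this general difference between the groups in the results on the brush border genes was not tested. The labels call all 4 samples LoVo, and a difference in origin between the cultures and an effect of the loss of MET cannot be told apart in any value that follows.

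No brush border assembly gene was called higher in MET-KO cells. VIL1, EPS8, PLS1, EZR and USH1C fell, from 1.84-fold for EZR to 14.2-fold for EPS8 among the genes with at least 10 counts in every library. The other 5 genes, CDHR2, CDHR5, MYO7B, MYO1A and ANKS4B, had too few counts to enter the test. The 5 called genes were all that were tested, where 26.9% of all tested genes were called lower. Of these 5, 4 had a log2 fold change of -1 or below, against 9.81% of all tested genes. Their groups did not overlap, which held in either direction for 75.6% of all tested genes and with MET-KO lower for 37.1%. VIL1 entered the test only through its MET+ libraries, so its call is no independent addition to that count. Summed over the 10 genes, the level was 789 and 781 CPM in MET+ and 263 and 256 CPM in MET-KO libraries. In RNA from whole cultures, fewer cells that express a gene and less RNA per cell cannot be told apart.

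Among the core genes, EPS8 changed most in absolute level. EPS8 caps actin filaments at the tips of microvilli and also helps to bundle them. EPS8 (ENSG00000151491, GRCh38 chromosome 12, 15620158 to 15882329, minus strand) had 309.8 and 297 CPM in MET+ libraries and 18.8 and 23.9 CPM in MET-KO libraries. The groups did not overlap, and the MET-KO mean was 7.05% of the MET+ mean (303 ± 8.97 against 21.4 ± 3.62 CPM, SD, n = 2 each). On the log2 scale the change came to -3.82 (standard error 0.11, edgeR adjusted p = 1.86e-24), which ranked 60 by p-value among all tested genes.

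Villin, encoded by VIL1, bundles actin filaments and can sever them when calcium is high, and it is a classical marker of the brush border. VIL1 (ENSG00000127831, chromosome 2, 218419092 to 218453295, plus strand) was low in MET+ cells, with 43 and 58 counts or 5.20 and 5.95 CPM, and stood at 3 counts in each MET-KO library. Both MET-KO values were at the level that a count of 0 allows. The ratio of MET+ to MET-KO was 19.7, with a 95% interval of 8.73 to 54.9 that covers counting error only, and the edgeR adjusted p was 1.92e-08. PLS1 (ENSG00000120756, chromosome 3, 142596387 to 142713664, plus strand) encodes plastin 1, or fimbrin, a crosslinker of the core bundle. Its level was 47.2 and 43.5 CPM in MET+ and 13.5 and 13.1 CPM in MET-KO libraries. The SD between replicates was 2.64 CPM for MET+ and 0.322 CPM for MET-KO, around means of 45.4 and 13.3 CPM, a log2 fold change of -1.77 (standard error 0.14, edgeR adjusted p = 1.14e-12).

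The membrane linkers were far apart in level. Ezrin, encoded by EZR, binds membrane proteins at one end and actin at the other, and was the most abundant of the 10 genes in every library. EZR (ENSG00000092820, chromosome 6, 158765741 to 158819412, minus strand) had 403 and 398 CPM in MET+ and 222 and 214 CPM in MET-KO libraries. Its log2 fold change of -0.88 (standard error 0.09, edgeR adjusted p = 3.79e-10) was the smallest in size among the tested brush border genes. EZR made up 51.1% and 51.0% of all counts on the 10 genes in MET+ libraries and 84.5% and 83.4% in MET-KO libraries. The share of EPS8 in the same sum went from 39.3% and 38.0% to 7.15% and 9.34%.

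MYO1A encodes the brush border myosin that bridges the core bundle and the membrane. MYO1A (ENSG00000166866, chromosome 12, 57028517 to 57051198, minus strand) had 8 and 17 counts in MET+ libraries against 4 and 0 in MET-KO libraries. The ratio of the summed counts after scaling was 7.305 (95% interval 2.52 to 28.9, counting error only). When low genes were kept in the test, its log2 fold change was -2.77 and its edgeR adjusted p 0.00733. With MET-KO replicate 2, the library at 0, left out, it passed the filter at a log2 fold change of -1.77 and an edgeR adjusted p of 0.19, so the size of the difference rests on that library. The log2 fold change of MYO1A was -3.11 without MET+ replicate 1 and -6.74 without MET-KO replicate 1. In each of these fits MYO1A passed the filter only through MET+ libraries, so the fits are no independent addition.

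In the tip complex, only USH1C was expressed at a level that could be followed. USH1C encodes harmonin, the PDZ scaffold that holds the protocadherins and MYO7B together. USH1C (ENSG00000006611, chromosome 11, 17493895 to 17544416, minus strand) had 21.3 and 33.0 CPM in MET+ and 7.55 and 5.34 CPM in MET-KO libraries. The MET+ replicates were wide apart for their level (27.2 ± 8.33 CPM, SD, n = 2), yet both lay above both MET-KO libraries (6.45 ± 1.56 CPM). The log2 fold change was -2.09 (standard error 0.21, edgeR adjusted p = 2.46e-10), and it lay between -2.36 and -1.73 over the alternatives tried.

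ANKS4B, which encodes the second scaffold of the tip complex and binds both harmonin and MYO7B, had counts in MET+ libraries only. ANKS4B (ENSG00000175311, chromosome 16, 21233665 to 21253845, plus strand) had 7 and 13 counts in MET+ libraries and 0 in both MET-KO libraries. Taking 3 counts per library for each 0, it was at least 3.82-fold lower in MET-KO cells. This bound was 4.68-fold without MET+ replicate 1 and 2.97-fold without MET+ replicate 2. With low genes kept in the test, the edgeR adjusted p of ANKS4B was 0.000679. MYO7B, the motor that carries the complex to the tip, had 2 and 1 counts in MET+ libraries and 0 in both MET-KO libraries. CDHR5 had 1 count in MET+ replicate 1 and 0 elsewhere, and CDHR2 had 2 counts in MET-KO replicate 1 and 0 elsewhere. All 3 genes were at or under 3 counts in every library, so no difference was detectable at this depth. The protocadherins that form the tip links were therefore at or under this limit in MET+ as well as in MET-KO cells.

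By level, the order in MET+ cells was EZR, EPS8, PLS1, USH1C and VIL1, with no overlap between neighbours in that order. The same order held in MET-KO cells, where EPS8 (18.8 and 23.9 CPM) came closer to PLS1 (13.5 and 13.1 CPM) but did not overlap it. MYO1A and ANKS4B came next in MET+ cells at 0.967 and 1.75 CPM and at 0.846 and 1.33 CPM, and these ranges overlapped.

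The promoters of the set were read for letters that factors of the enterocyte programme are known to bind. RefSeq windows on GRCh38.p14, from 250 bases before to 50 bases after a start site, were matched for 7 of the 10 genes (13 windows), without VIL1, CDHR5 and EPS8. On either strand, CAAAGTCC, part of the HNF4 site, was found in 2 of the 13 windows and in 1.2% of 35116 windows of all genes. TTTAT, the core letters of CDX sites, was found in 6 of 13 and in 34.9% of all windows. No matches of different motifs in these 13 windows shared a base. The window of MYO1A (chr12:57050080-57050379, minus strand, the second of 2 start sites) is shown because it holds the HNF4 letters in a gene with over 3 counts in both MET+ libraries. Capitals mark these letters, which match on the opposite strand.
MYO1A: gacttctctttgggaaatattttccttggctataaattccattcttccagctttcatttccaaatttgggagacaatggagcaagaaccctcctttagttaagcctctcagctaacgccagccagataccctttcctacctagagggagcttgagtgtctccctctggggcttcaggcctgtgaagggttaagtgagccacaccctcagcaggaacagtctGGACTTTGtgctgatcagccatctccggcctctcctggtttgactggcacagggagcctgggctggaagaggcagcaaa
In MYO1A the match begins 29 bases before the start site. The other match to the HNF4 letters began 40 bases before a start of MYO7B, which was at or under 3 counts in all libraries. USH1C, PLS1 and EZR did not have the HNF4 letters in their windows, and PLS1 had the CDX letters in 2 of its windows. A match describes letters only, and binding was not measured.

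The annotated position of several genes is shared with others, and the strand setting used in counting is not given in the sources used here. VIL1 overlaps USP37 on the other strand, which had 120 and 172 counts in MET+ and 137 and 147 in MET-KO libraries. CDHR2 overlaps GPRIN1 on the other strand, which had 208 to 246 counts per library. ANKS4B overlaps CRYM on the other strand, with 60 and 66 counts in MET+ and 44 and 22 in MET-KO libraries. MYO1A overlaps TAC3 on the same strand, with 2 and 7 counts in MET+ and 0 and 1 in MET-KO libraries. For MYO1A and ANKS4B, reads cannot be assigned with certainty.

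Since Y-chromosome genes differed between the groups, each gene was also set against the tested genes of its own chromosome. EPS8 and MYO1A lie on chromosome 12, where the 762 tested genes had a median log2 fold change of -0.32, and the 35 tested genes within 5 Mb of EPS8 had a median of -0.44. Around MYO1A, 122 tested genes within 5 Mb had a median of -0.53. Of these, 65 were called lower, as were 15 of the 35 around EPS8, against 26.9% of all tested genes. EPS8 stood at percentile 2.76 of its chromosome. VIL1 stood at percentile 1.40 of chromosome 2 (median 0.03), USH1C at 3.03 of chromosome 11 (median 0.04), PLS1 at 3.18 of chromosome 3 (median 0.14) and EZR at 10.4 of chromosome 6 (median 0.08). Around these 4 genes, the medians within 5 Mb were 0.02, -0.03, 0.27 and -0.12. In the same order, 12 of 56, 8 of 40, 6 of 33 and 10 of 29 genes were called lower. PLS1 thus fell among neighbours with a median above 0.

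**Figure D1:**
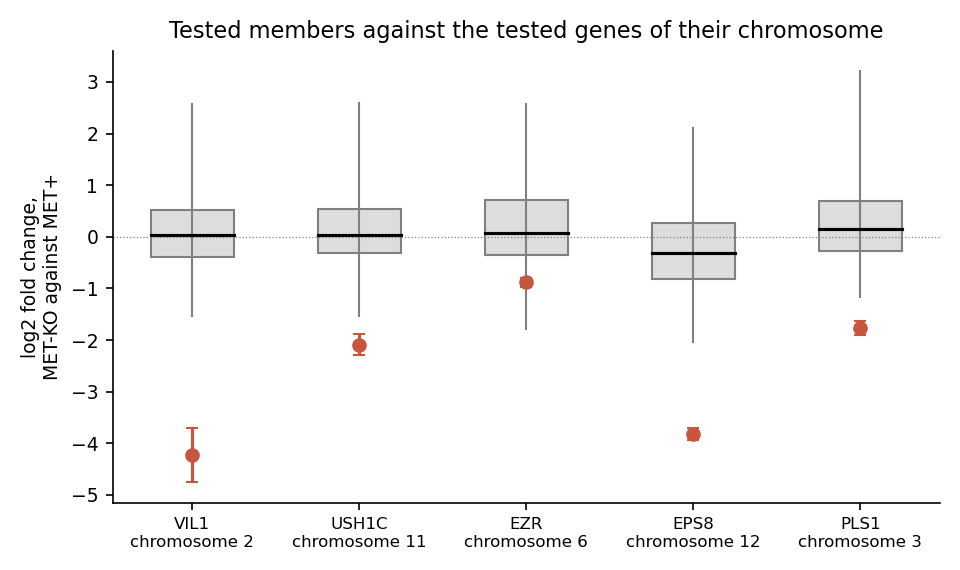
Log2 fold change, MET-KO against MET+, of the 5 tested brush border genes (red points with standard error) against all tested genes of their chromosome (box for quartiles, black line for the median, grey line from percentile 5 to 95). VIL1, USH1C, EPS8 and PLS1 lie under the grey line of their chromosome, while EZR at -0.88 lies within it.

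Most of the 10 genes have relatives with a similar product, and 19 of these were listed. Of the 19, 14 were tested, 5 fell and 5 rose in MET-KO cells, and the median of their log2 fold changes was 0.10 against 0.01 over all tested genes. Over all tested genes 26.9% were called lower and 27.2% higher, and the counts of the lists that follow are to be read against these shares. The plastin genes went opposite ways. PLS3, which encodes the plastin of most other solid tissues, had 21.5 and 25.9 CPM in MET+ and 48.4 and 48.3 CPM in MET-KO libraries (log2 fold change 1.02, standard error 0.13, edgeR adjusted p = 3.13e-08). LCP1, the plastin of blood cells, had 6 and 5 counts in MET+ and 2 and 1 in MET-KO libraries and was not tested. PLS1 made up 68.0% and 62.3% of the plastin counts in MET+ libraries and 21.8% and 21.3% in MET-KO libraries, while the plastin sum was 69.5 and 69.9 CPM against 62.2 and 61.4 CPM.

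The EPS8 family showed the same pattern in part. EPS8L2 rose from 32.6 and 37.7 CPM to 68.0 and 69.1 CPM (log2 fold change 0.96, edgeR adjusted p = 1.12e-08), and EPS8L3 rose from 5.20 and 4.52 CPM to 17.2 and 17.9 CPM (log2 fold change 1.85, edgeR adjusted p = 6.22e-09). EPS8L1 had 3 counts in each MET+ library and 0 in both MET-KO libraries. EPS8 accounted for 89.0% and 87.5% of the family counts in MET+ and for 18.1% and 21.6% in MET-KO libraries. Here the family sum was lower too, at 104.0 and 111 CPM in MET-KO against 348 and 339.6 CPM in MET+ libraries.

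Ezrin has 2 close relatives, radixin and moesin, which link actin to the membrane in the same way. RDX had 125 and 117 CPM in MET+ and 115 and 123 CPM in MET-KO libraries, which overlapped (log2 fold change -0.02, standard error 0.10, edgeR adjusted p = 0.897, with the sign turned under library totals alone). MSN rose from 63.0 and 65.5 CPM to 96.0 and 85.6 CPM (log2 fold change 0.50, standard error 0.10, edgeR adjusted p = 0.000126). EZR made up 68.3% and 68.6% of the counts of the 3 genes in MET+ libraries and 51.3% and 50.5% in MET-KO libraries. These shares are taken within a library and do not depend on scaling. For each of the 3 families the 95% intervals of the 2 groups (Clopper-Pearson, counting error only) did not meet, although the smallest two-sided exact permutation p for 2 libraries in each group is 0.333.

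**Figure D2:**
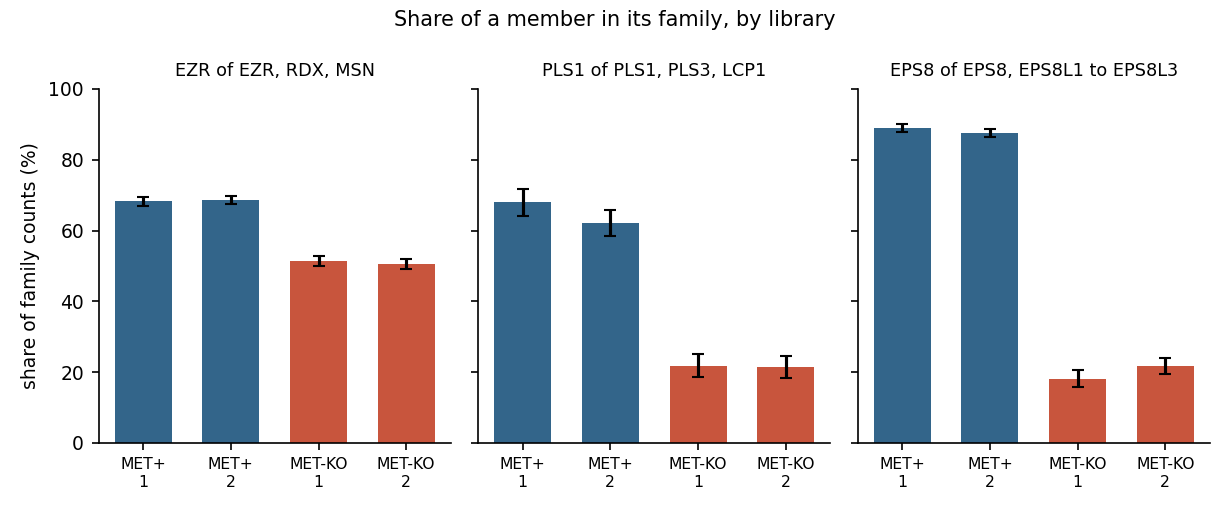
Share of EZR, PLS1 and EPS8 in the summed counts of their families in each library, in percent, with 95% Clopper-Pearson intervals that cover counting error only (blue MET+, red MET-KO). EZR goes from 68.3% and 68.6% to 51.3% and 50.5%, and EPS8 from 89.0% and 87.5% to 18.1% and 21.6%.

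Among the villin relatives, VILL and GSN fell. VILL had 33 and 54 counts in MET+ libraries against 2 and 0 in MET-KO libraries, a ratio of 50.8 (95% interval 13.7 to 426, counting error only, edgeR adjusted p = 3.29e-08). Like VIL1, it entered the test only through its MET+ libraries. GSN, which encodes the severing protein gelsolin, went from 45.3 and 46.6 CPM to 32.3 and 29.5 CPM (log2 fold change -0.58, edgeR adjusted p = 0.000153). AVIL (2 and 6 counts against 10 and 17, edgeR adjusted p = 0.0508) and SCIN (21 and 20 counts against 17 and 9, edgeR adjusted p = 0.126) did not pass the threshold, though AVIL did with library totals alone (adjusted p = 0.0349) and with DESeq2 size factors (0.0499). Among the class I myosins listed beside MYO1A, MYO1D and MYO1E fell, with log2 fold changes of -0.82 and -1.39, and MYO1C rose by 0.75 (edgeR adjusted p between 5.65e-10 and 1.39e-06 for the 3 genes). MYO1A supplied at most 1.21% of the counts of these 4 myosin genes in any library.

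The tip complex has a counterpart in the stereocilia of hair cells, built from CDH23, PCDH15, MYO7A and USH1G. PCDH15 had 0 counts in all libraries, CDH23 had 1 or 0, and MYO7A had 5 counts in MET+ replicate 2 and 0 elsewhere. USH1G, related to ANKS4B, fell from 45 and 37 counts to 19 and 24 counts (log2 fold change -1.16, edgeR adjusted p = 0.00874), a call that was lost with DESeq2's Wald test (adjusted p = 0.0537), without MET+ replicate 1 (0.0947) and without MET-KO replicate 1 (0.0807). WHRN, related to USH1C, had 29 and 22 counts in MET+ and 40 and 30 in MET-KO libraries (edgeR adjusted p = 0.646).

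**Figure D3:**
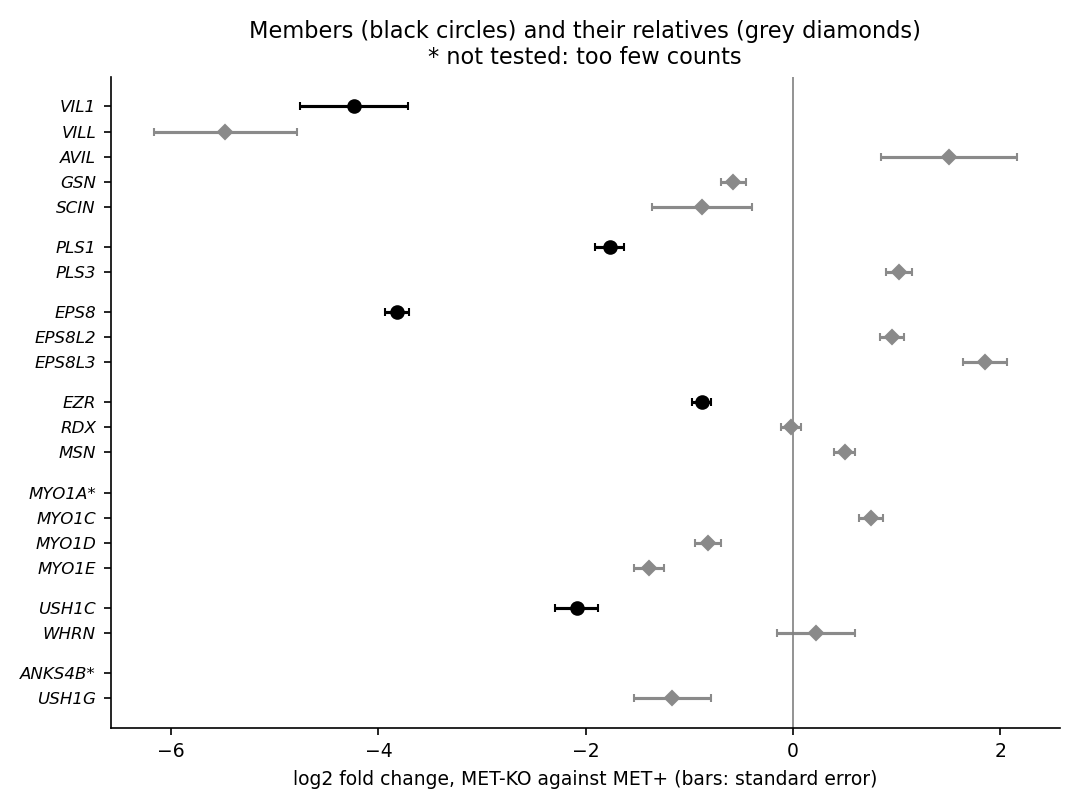
Log2 fold change, MET-KO against MET+, with standard errors, of brush border genes (black circles) and their tested relatives (grey diamonds), grouped by family; MYO1A and ANKS4B were not tested. PLS3, EPS8L2, EPS8L3 and MSN lie right of 0 while the related PLS1, EPS8 and EZR lie left of it, and the fitted value of VILL rests on 2 and 0 counts in MET-KO libraries.

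Further genes of the microvillus were read from lists. Of 11 genes of the actin core, its tip and its base, 10 were tested, 5 fell and 4 rose (26.9% and 27.2% of all tested genes), with a median log2 fold change of -0.28. The cytoplasmic actins went opposite ways. ACTG1 fell from 5609 and 5704 CPM to 3934 and 3382 CPM (edgeR adjusted p = 4.16e-06). ACTB rose from 641 and 590.5 CPM to 959.8 and 923 CPM (edgeR adjusted p = 8.73e-07). The coding parts of these genes are nearly alike, but reads here came from the 3' end of transcripts. Whether any reads were shared between them was not tested. BAIAP2L2 had 47 and 53 counts in MET+ and 0 and 2 in MET-KO libraries, a ratio of 58.4 (95% interval 15.8 to 489, counting error only), and entered the test only through its MET+ libraries. BAIAP2L1, which works with EPS8 at the microvillus tip, fell with a log2 fold change of -0.43, as did MISP by -1.29 and MYO6 by -0.26. The MYO6 call was lost under library totals alone (adjusted p = 0.186), DESeq2's Wald test (0.0615) and without replicate 1 of MET+ (0.184) or MET-KO (0.0732). ESPN, PACSIN2 and FSCN1, the last a bundler of filopodia, rose by 0.995, 1.12 and 0.42 on the log2 scale. CALML4, a light chain of the tip complex, had at most 4 counts in any library.

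Partners of the membrane linkers were followed in a list of 8 genes, of which 6 were tested, 2 fell and 1 rose, beside 26.9% and 27.2% of all tested genes. SLC9A3R1, the PDZ adaptor that binds ezrin under the membrane, fell from 93.7 and 89.7 CPM to 52.9 and 50.2 CPM (log2 fold change -0.83, edgeR adjusted p = 2.96e-08). SLK, a kinase that activates ezrin, radixin and moesin, fell from 278 and 265 CPM to 79.0 and 89.7 CPM (log2 fold change -1.69, edgeR adjusted p = 1.99e-16). PODXL, a sialomucin that binds the same adaptors, rose from 86.2 and 85.9 CPM to 189 and 183 CPM (log2 fold change 1.11, edgeR adjusted p = 5.68e-12). PDZK1, the multi-PDZ scaffold of the brush border, had 0 counts in all 4 libraries.

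Of 11 genes for apical trafficking and polarity, all were tested, 3 fell and 3 rose, which is close to the 26.9% and 27.2% of all tested genes. MYO5B and STX3, needed for delivery of vesicles to the apical membrane, did not pass the threshold (edgeR adjusted p = 0.887 and 0.18). CDC42 had 233.6 and 233.9 CPM in MET+ and 209.7 and 211 CPM in MET-KO libraries and did not pass either (edgeR adjusted p = 0.15). UNC45A, RAB11A and STK26 fell by 0.28, 0.24 and 0.78 on the log2 scale, and RAB8A, STK11 and TNIK rose by 0.35, 0.70 and 1.56. The calls of UNC45A and RAB11A were lost under library totals alone (adjusted p = 0.159 and 0.223) and DESeq2's Wald test (0.0696 and 0.0697). RAB11A was also lost with no filter (0.0511), with at least 10 counts in every library (0.059) and when any of the 4 libraries was left out (0.0649 to 0.125), and UNC45A without MET+ replicate 1 or 2 or MET-KO replicate 2 (0.0614 to 0.0985). RAB8A was lost with DESeq2's Wald test (0.0552) and without MET+ replicate 2 (0.0687) or MET-KO replicate 2 (0.104).

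The digestive enzymes and transporters that a mature brush border carries were at or near 0 in both groups. Of 18 listed genes, 12 had 0 counts in all 4 libraries, among them SI, LCT, ANPEP and SLC15A1, and 1 was expressed enough to be tested. That gene, DPP4, a peptidase of the apical membrane, fell from 55.7 and 52.2 CPM to 12.9 and 12.0 CPM (log2 fold change -2.11, standard error 0.14, edgeR adjusted p = 5.73e-15). FABP1, a lipid carrier of enterocytes, had 4 and 22 counts in MET+ and 0 in both MET-KO libraries, at least 4.81-fold lower, a bound that rests on MET+ replicate 2 and is 1.69-fold without it. ENPEP had 0 and 3 counts in MET+ and 5 and 13 in MET-KO libraries.

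The transcription factors of the enterocyte programme did not move together. HNF4A fell from 65.4 and 82.5 CPM to 8.14 and 5.62 CPM (log2 fold change -3.43, standard error 0.16, edgeR adjusted p = 5.75e-19), and its paralog HNF4G had 12 and 6 counts in MET+ and 0 in both MET-KO libraries. KLF5 fell from 604 and 544 CPM to 77.9 and 66.7 CPM (log2 fold change -2.99, standard error 0.10, edgeR adjusted p = 1.06e-22). CDX2 went the other way, from 63.4 and 66.5 CPM to 145 and 123 CPM (log2 fold change 1.04, standard error 0.10, edgeR adjusted p = 1.93e-10). GATA6 and ELF3 also rose, by 0.97 and 0.65 on the log2 scale. CDX1 had 0 counts in all libraries. Of the 7 listed factors 5 were tested, 2 fell and 3 rose, where 54.1% of all tested genes were called in either direction.

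**Figure D4:**
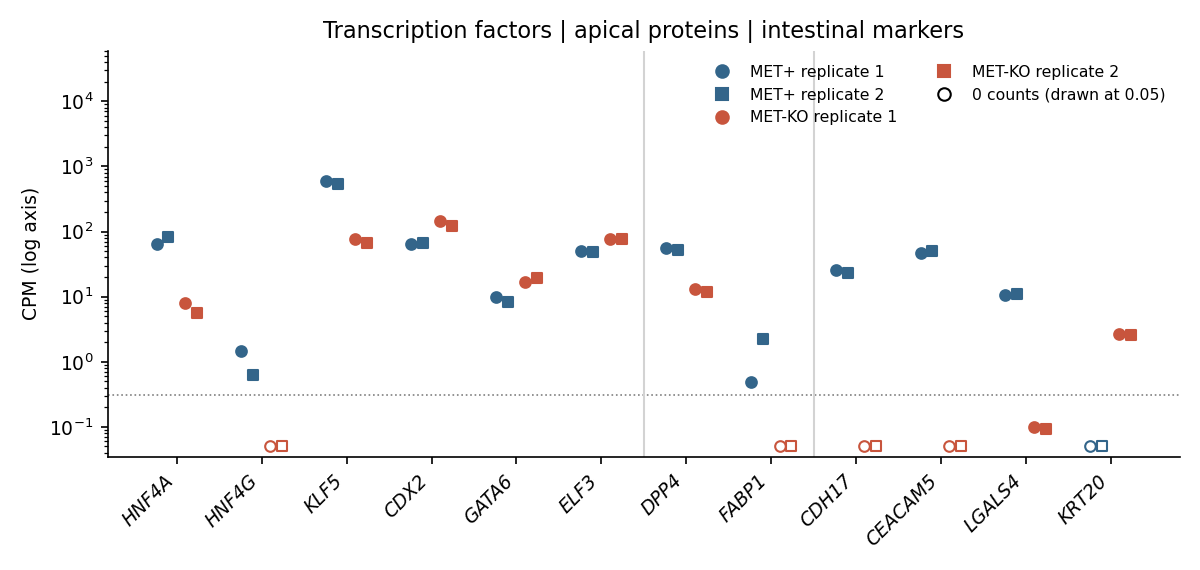
Level in every library, in CPM on a log axis, of transcription factors of the enterocyte programme (left), the apical peptidase DPP4 and the lipid carrier FABP1 (middle), and intestinal markers (right); blue is MET+, red is MET-KO, open symbols stand for 0 counts and the dotted line is the mean level of 3 counts, 0.31 CPM. HNF4G, CDH17 and CEACAM5 are at 0 in both MET-KO libraries, whereas CDX2 and KRT20 are higher there than in MET+ libraries.

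Signs of other cell types were few in all 4 libraries. The leukocyte genes PTPRC and CD3E and the endothelial gene CDH5 had 0 counts throughout, PECAM1 had 3 and 7 counts in MET+ and 0 in both MET-KO libraries, and the 4 leukocyte genes summed to between 0.686 and 1.95 CPM. Of 9 mesenchymal genes, 4 were tested. VIM fell from 127 and 202 counts to 4 and 5, ZEB1 rose from 11 and 16 counts to 96 and 119, and FN1 rose from 9 and 11 counts to 73 and 60, while COL1A1 did not pass the threshold (edgeR adjusted p = 0.718). The sum of the 9 genes was 19.5 and 24.6 CPM in MET+ and 18.4 and 18.8 CPM in MET-KO libraries. The epithelial markers EPCAM and CDH1 lay between 75.7 and 439.6 CPM in the 4 libraries, and both fell, by 1.11 and 0.88 on the log2 scale.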

How the data were processed

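Total RNA of LoVo cells was made into 3' mRNA libraries (QuantSeq, FWD). The authors deposited read counts per gene, without normalization, in 1 table per library with 58825 Ensembl rows and 99 spike-in rows at 0 counts. The submitters' processing notes list cutadapt 1.16, STAR 2.5.4a, featureCounts 1.6.2 and the build GRCh38. The annotation release and the strand setting are not given in the sources used here. Names and positions came from GENCODE 29 (58552 of the IDs matched). No molecular identifiers were counted, and intervals and limits therefore cover counting error alone.

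Genes were filtered with filterByExpr by group (13801 of 23153 genes with a count), scaled by TMM and tested with the quasi-likelihood test of edgeR 4.0.16 in R 4.3.3, with condition as the only term, Benjamini-Hochberg adjustment over all tested genes and a threshold of 0.05, after a test on simulated data. Adjusted p-values are from this fit unless an alternative is named beside them. The alternatives also used the edgeR test, except for the Wald test of DESeq2 1.42.0. Fold changes are MET-KO against MET+. Replicates differed by more than counting noise (chi-square per degree of freedom 5.45 in MET+ and 4.86 in MET-KO cells), were called biological by the labels, and entered as separate samples.

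The genes and lists were chosen with earlier results of these data known, and a few items are not reported here. Named genes are the 10 brush border genes, their 19 listed relatives, in each other list the 3 with the most counts, genes counted in groups of 5 or fewer, and the target MET. Other genes of the lists named here, HNF4G, CDX1, STX3, MYO5B, STXBP2, STK10, CALML4, PDZK1 and the listed enzymes at 0, were named after their values were seen. Alternatives changed the scaling (DESeq2 size factors or library totals alone), the tool (DESeq2's Wald test), the filter (none, or 10 counts or more in each library) and the depth (thinned to that of the smallest library), blocked on the replicate number, left out each replicate, or asked for a log2 change of 1 or more in size. Figures were drawn with matplotlib 3.10.9.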

Additional observations from a re-analysis of the deposited data

How the results depend on the processing

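VIL1, EPS8, PLS1, EZR and USH1C were called lower at an adjusted p of 0.05 in all 54 fits of a single gene under the alternatives, and EZR alone was lost when a log2 change of 1 or more in size was also asked for. With at least 10 counts in every library, VIL1 was not tested and 4 genes were called. Without a filter, 7 were called, ANKS4B and MYO1A among them, and the median log2 fold change of the brush border genes was -2.60 in place of -2.09, as all 10 were then tested. Leaving out each replicate gave medians from -3.67 (without MET-KO replicate 1) to -1.84 (without MET+ replicate 2), with 5 to 7 genes kept by the filter. The genes so added, MYO1A and ANKS4B, passed it only through MET+ libraries and were therefore low in MET-KO by selection. The limit of a log2 change of 1 or more in size left 4 brush border genes. In the 6 wider lists together it left 9 lower and 6 higher genes in place of 18 and 16. Scaling by library totals alone raised the median of all tested genes from 0.01 to 0.11, and EZR then had -0.78. The sign turned for RDX, STK10, MYO5B, WHRN and STXBP2, none of which passed the threshold in the main fit. Their log2 fold changes there were -0.02, -0.08, -0.04, 0.22 and -0.35. RDX had 0.085, STK10 0.019 and MYO5B 0.062 with library totals alone, and RDX had 0.021 with at least 10 counts in every library. When each replicate was left out, RDX ranged from -0.073 to 0.033, STK10 from -0.24 to 0.082, MYO5B from -0.22 to 0.15, WHRN from -0.081 to 0.56 and STXBP2 from -0.65 to 0.077. The cause was not tested.

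The replicate numbers are shared between groups, but the labels tie them to no batch, and the deviations of equal numbers from their group means correlated at -0.02 over genes. With the replicate number as a block, 5 brush border genes were called lower and 0 higher, EZR had a log2 fold change of -0.88 and USH1C of -2.06, and the wider lists had 16 lower and 16 higher genes, the calls of MYO6 (adjusted p = 0.0594) and RAB11A (0.0736) being lost. At this depth, CDHR2, CDHR5 and MYO7B could not be compared.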
